A study of Saccharomyces cerevisiae with 93 samples.

Results

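Compound 5 was given to yeast cells that carry 2 galactose-driven copies of human alpha-synuclein, the protein that aggregates in Parkinson's disease. Its effect was read on 3 arrays that set RNA of treated 2-copy cells against RNA of untreated 2-copy cells at 4 h, out of 93 2-colour arrays in the series. The 3 arrays were chosen by their titles alone, so no measured value entered the choice, and all 6377 probes are described. Treated RNA carried Cy5 and untreated RNA carried Cy3 on each of them, with no dye swap. The labels write compound 5 as a dimethyl quinolinone with an ethyl substituent and give no dose. Compounds 3 and 4 share the dimethyl quinolinone and carry a bromofluorophenyl group, while compounds 1, 2 and 6 are benzo-fused quinolinones with an iodophenyl group, a bromophenyl group, and an ethylphenyl group plus a bromine. Other arrays serve for comparison: the other compounds in 2-copy cells (3 arrays each), compound 5 over no compound in vector cells without alpha-synuclein (3 arrays), 2-copy over vector cells that both received compound 5 (3 arrays), and untreated 2-copy over vector cells (6 arrays), all at 4 h. A strain note on 1 compound 2 array in 2-copy cells gives a W303 background with the regulators pdr1 and pdr3 deleted and alpha-synuclein fused to GFP. The compound 5 arrays carry no such note, and the arrays hold no probe for the human gene.

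Alpha-synuclein made in yeast slows vesicle traffic from the endoplasmic reticulum (ER) to the Golgi. Proteins held back in the ER are known to switch on the unfolded protein response, which raises ER chaperones such as Kar2 and the oxidase Ero1. Chaperones of the cytosol, genes of the general stress program and cell wall genes are also induced in stressed yeast, while genes for ribosomes are usually turned down. The series title names the rescue of this toxicity.

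The 3 compound 5 arrays shared little of their pattern. Pearson's r over all probes was 0.0784 between arrays 1 and 2, 0.162 between arrays 1 and 3, and 0.028 between arrays 2 and 3. For comparison, the median r between replicate arrays in 2-copy cells was 0.636 for compound 1 and 0.696 for compound 2. Array 1 had the wider spread of log2 ratios, with an SD over probes of 0.509 against 0.282 on array 2 and 0.250 on array 3. It held 133 probes at a log2 ratio of 1 or more and 255 at -1 or less, whereas array 2 held 31 and 26 and array 3 held 13 and 16. Array 1 correlated at 0.71, 0.745, 0.605, 0.563 and 0.4999 with array 1 of compounds 1, 2, 3, 4 and 6 in 2-copy cells. Array 3 correlated at 0.693 and 0.649, and array 2 at 0.367 and 0.347, with the same-numbered arrays of compounds 1 and 2. With those of compounds 3, 4 and 6, r ran from -0.0274 to 0.0836 for array 3 and from -0.00491 to 0.0338 for array 2. How much of array 1 goes with its number rather than with compound 5 was not tested. Many results below are therefore given by array, and others by their mean alone.

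Compound 5 was followed by lower RNA for a small set of genes, most of them by less than 2-fold. In limma's moderated test of the mean of the 3 arrays against 0, with Benjamini-Hochberg adjustment over all probes and a threshold of 0.05, 63 probes (0.988% of those tested) passed. Of these, 56 were lower (0.878%) and 7 were higher (0.11%), and 871 probes had an unadjusted p under 0.05. Among the 63, 55 had 1 sign on all 3 arrays, and array 1 was the farthest from 0 in 43. Only 1 had a mean of at least 1 in size. Without array 1, 13 probes passed, of which 6 were among the 63. Without array 2 and without array 3, 176 and 180 passed, of which 45 and 58 were among the 63, and 0 of the 63 passed whichever array was left out. Fitted to the 3 arrays alone, without the spread of the other groups, limma called 0 probes, with 316 at an unadjusted p under 0.05. The calls in 2-copy cells use a spread estimated over all 30 groups of arrays.

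Of the 63, 15 also passed when a dye effect was fitted for each gene, had a gene symbol and had 1 sign on all arrays. That fit replaced the group means by a level for each RNA, shared by all arrays labelled with it. Its estimates thus also draw on other comparisons, and can differ from the main ones for reasons other than dye. Among these genes 12 were lower and 3 were higher. Since RNA was pooled over each culture, fewer cells with a transcript and less of it per cell cannot be told apart.

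**Figure D1:**
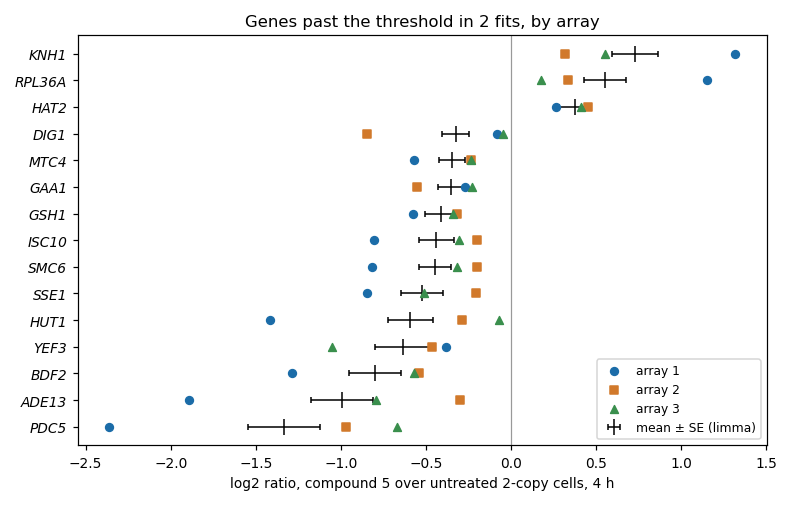
Log2 ratio of compound 5 over no compound in 2-copy cells at 4 h (horizontal axis) for the 15 genes past the threshold with and without a dye term (vertical axis). Symbols are the 3 arrays, and bars are the mean ± SE of the limma fit. Array 1 (circles) lies farthest from 0 for most genes, and DIG1 is carried by array 2 at -0.85.

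The deepest fall was in PDC5, a pyruvate decarboxylase of alcoholic fermentation that is induced when PDC1 is missing. Its log2 ratios were -2.36, -0.97 and -0.67 on arrays 1, 2 and 3. All arrays were below 0, with a mean of -1.34 ± 0.21 (SE, limma adjusted p = 0.000141). PDC1, the main isozyme, had values of -2.19, -0.11 and -0.67, a mean of -0.99 and an adjusted p of 0.014 in the limma fit. It was near 0 on array 2, and it missed the threshold once a dye term was fitted (limma adjusted p = 0.0921). The genes are close paralogs, and a probe may read both, so a change in PDC1 and one in PDC5 cannot be told apart here. Without array 1 the adjusted p of PDC5 in the limma fit was 0.159.

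The next lowest mean among the 12 was that of ADE13. ADE13, the adenylosuccinate lyase of purine synthesis, had log2 ratios of -1.89, -0.30 and -0.79, with a mean of -0.99 ± 0.18 (SE, limma adjusted p = 0.00197). GSH1, which catalyses the first step of glutathione synthesis, gave -0.58, -0.32 and -0.34, with a mean of -0.41 ± 0.10 (SE, limma adjusted p = 0.014). Its arrays lay close together. BIO3, a transaminase of biotin synthesis, gave -0.98, -1.03 and -0.36 (limma adjusted p = 0.023), and passed only without the dye term.

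The rest of the 12 follow. BDF2, a bromodomain protein of the general transcription machinery, had log2 ratios of -1.29, -0.54 and -0.57, with a mean of -0.80 ± 0.15 (SE, limma adjusted p = 0.00225). SSE1, an Hsp110 nucleotide exchange factor for cytosolic Hsp70, gave -0.85, -0.21 and -0.51, with a mean of -0.52 ± 0.12 (SE, limma adjusted p = 0.014). All 3 arrays were below 0 for both. HUT1, a transporter homolog of the ER membrane, gave -1.41, -0.29 and -0.07 (limma adjusted p = 0.0131). YEF3, the fungal translation elongation factor 3, was lowest on array 3, with -0.38, -0.46 and -1.05 (limma adjusted p = 0.0416). The other lower genes of the 12 were SMC6 of the Smc5-Smc6 complex, ISC10 of meiosis, GAA1 of the GPI transamidase, MTC4, and DIG1, which represses mating genes. Their means lay between -0.45 for SMC6 and -0.33 for DIG1. Without array 1, the call was lost for 14 of the 15 genes, with limma adjusted p-values from 0.0538 for GAA1 to 0.998 for HUT1 and RPL36A. DIG1 was the exception: its values were -0.08, -0.85 and -0.05, and without array 2 its limma adjusted p was 0.763. GAA1 and HAT2 also missed the threshold without array 2 (limma adjusted p = 0.132 and 0.0957), and YEF3 and HAT2 without array 3 (limma adjusted p = 0.281 and 0.0748).

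A further 8 of the 56 lower probes belong to genes of the ER, the Golgi or membrane traffic and passed only without a dye term. They were picked after their values were seen. How many of all probes belong to such genes was not counted, so the number 8 says nothing about these genes as a group. For JEM1, SLY1, ERP2 and PMT3 the counts over whole lists stand with the lists. JEM1, a J-protein partner of Kar2 in the ER lumen, gave -0.90, -0.11 and -0.47 (limma adjusted p = 0.014). ORM2, which restrains sphingolipid synthesis, gave -1.26, -0.24 and -0.51 (limma adjusted p = 0.0294). SLY1, which works with SNAREs in ER-to-Golgi fusion, gave -0.76, -0.18 and -0.26 (limma adjusted p = 0.0206). All these values were below 0. ARF2, COG6, ERP2, PMT3 and SEC9 had means from -0.62 for PMT3 to -0.38 for SEC9. With a dye term the limma adjusted p-values of these 8 genes ran from 0.0902 for ERP2 to 0.238 for PMT3.

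The 6 probes that passed also without array 1 each had their lowest value on array 2 or 3. DOG2, a sugar phosphatase gene, gave -0.57, -0.10 and -2.19, and YNL319W, which matched no gene, gave -0.06, -0.16 and -2.63 (limma adjusted p = 0.0101 and 0.014). Their low values were on array 3. TOP1, the DNA topoisomerase I, gave -0.46, -1.43 and -0.32, YLR225C gave -0.31, -0.95 and -0.34, and VPS63 gave -0.17, -1.16 and 0.02, so that array 2 was lowest for these and for DIG1. A gene with even values was RGL1, with -0.49, -0.48 and -0.46 (limma adjusted p = 0.00869, 0.104 without array 1). At the other extreme, APQ12, of the nuclear envelope, gave -2.17, -0.08 and -0.71, CUL3, a cullin, gave -1.51, 0.00 and -0.26, and SGT1, a cochaperone of Hsp90, gave -1.56, -0.26 and 0.21. These genes were chosen after their values were seen.

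Some of the lower genes shared a chromosome arm. The right arm of chromosome XII, by locus tag, held 14 of the 56 lower probes (25% of them) and 483 of the 6377 probes (7.57%). Among them were PDC5, PDC1, ADE13, YEF3, SMC6, GAA1, CPR6, ORM2, TAL1 and GSP1. Of its 483 probes, 14 were called lower (2.9%), against 0.878% of all probes. Its median log2 ratio was -0.09, -0.15 and -0.07 on arrays 1, 2 and 3, while the median over all probes was 0.00 on each array. GSP1, a Ran GTPase gene on that arm, gave even values of -0.59, -0.58 and -0.64 (limma adjusted p = 0.014).

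A low median of that arm was also measured outside compound 5 in 2-copy cells. Its median was below that of the other probes on all 27 arrays with compounds 1, 2 or 5, by -0.05 to -0.18. Among them were the 3 arrays on which both 2-copy and vector cells had received compound 5, with -0.13 to -0.06. On the 39 arrays without a compound it lay between -0.05 and 0.06, and on the 27 arrays with compounds 3, 4 or 6 between -0.10 and 0.09. When each array's median over a chromosome arm was subtracted, an alternative chosen after seeing the data, 52 probes passed, of which 50 were among the 63. Of the 14 on the right arm of chromosome XII, 4 still passed, including PDC5 at a limma adjusted p of 0.000953 and ADE13 at 0.00809. YEF3, SMC6 and GAA1 no longer passed, with limma adjusted p-values of 0.0917, 0.0707 and 0.111. What lowers the arm's median was not tested.

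**Figure D2:**
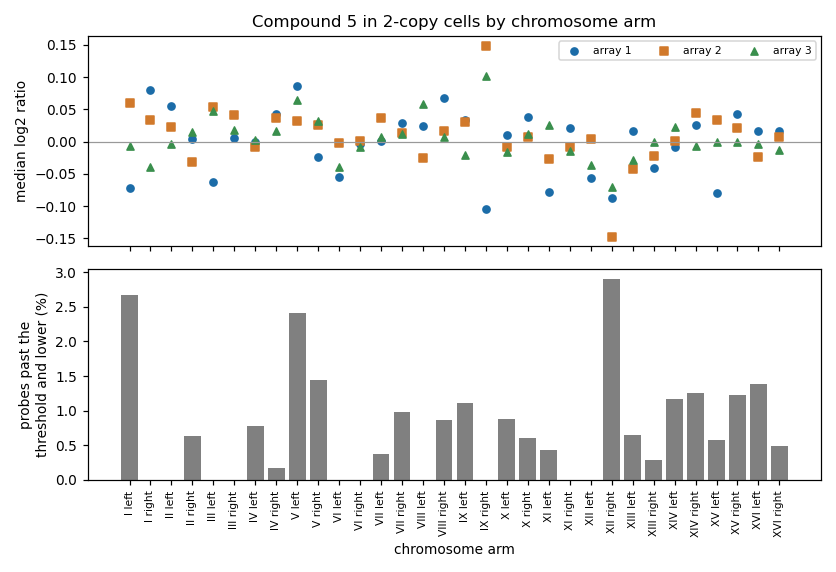
Upper panel: median log2 ratio over the probes of each chromosome arm on the 3 compound 5 arrays in 2-copy cells. Lower panel: percent of an arm's probes that passed the threshold and were lower. The right arm of chromosome XII lies below 0 on all 3 arrays (-0.09, -0.15 and -0.07) and has 14 lower probes of 483.

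Few genes were higher. KNH1, a cell wall glucan synthesis gene related to KRE9, had log2 ratios of 1.32, 0.32 and 0.55, with a mean of 0.73 ± 0.14 (SE, limma adjusted p = 0.00197). RPL36A, a protein of the large ribosomal subunit, gave 1.15, 0.33 and 0.17, with a mean of 0.55 ± 0.12 (SE, limma adjusted p = 0.0122). HAT2, a subunit of a histone acetyltransferase, was even across arrays with 0.27, 0.45 and 0.41 (limma adjusted p = 0.0239). KNH1 and RPL36A were highest on array 1, and HAT2 was lowest there. After the chromosome arm medians were subtracted the limma adjusted p of HAT2 was 0.0798. A further 4 probes rose only without the dye term: the glucose sensor SNF3 (0.62, 0.91 and 0.19), the mitochondrial ribosomal protein RSM25 (1.36, 0.18 and 0.53), TRA1, a subunit of the SAGA and NuA4 acetyltransferases (1.39, 0.91 and 0.27), and a probe of the mitochondrial tag Q0297 with no gene match (0.89, 1.17 and 0.67). All 4 were above 0 on every array.

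The secretory stress genes had their lowest list median on array 1. Of 20 genes for ER chaperones or the unfolded protein response, JEM1 fell and 0 rose. The list's median log2 ratio was -0.81 on array 1, 0.04 on array 2 and -0.20 on array 3, and 6 of the 20 were below 0 on all 3 arrays, beside 14.9% of all probes. KAR2, the ER Hsp70, had values of -1.08, 0.22 and -0.46, a mean of -0.44 and a limma adjusted p of 0.707. Its arrays lay on both sides of 0. ERO1, the thiol oxidase of the ER, gave -1.80, -0.31 and -0.97 (limma adjusted p = 0.2). SIL1, an exchange factor for Kar2, gave -2.19, -0.27 and -0.38 (limma adjusted p = 0.14). Both were below 0 throughout, with the larger part on array 1. Of 17 genes of ER-associated degradation, 0 passed. Of 46 ER-to-Golgi transport genes 2 fell (SLY1 and ERP2), of 42 translocation and glycosylation genes 1 fell (PMT3), and 0 rose in either list, beside 0.878% of all probes lower and 0.11% higher.

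Chaperones and stress genes of the cytosol had list medians on both sides of 0. Of 29 cytosolic heat shock genes, SSE1 and CPR6, an Hsp90 cochaperone, fell and 0 rose. The list's median was -0.89, -0.43 and 0.25 on arrays 1, 2 and 3. All 29 genes had a mean over the arrays below 0, with a median of -0.37, while 3248 of the 6377 probes had a mean below 0. Only 6 of the 29 were below 0 on every array, beside 14.9% of all probes. Of 34 general stress genes under Msn2 and Msn4, 0 passed, and the medians were -0.85, -0.28 and 0.56. HSP26, a small heat shock protein, gave -2.50, -0.92 and 0.08 (limma adjusted p = 0.305). DDR2, a stress gene of unknown role, gave -1.88, -0.31 and 0.28, and HXK1, a hexokinase, gave 0.08, 0.96 and 1.06. The general stress list thus had its highest median on array 3 and its lowest on array 1, beside a median of the genes' means of -0.20. ULI1, a gene of unknown role induced by ER stress, gave -2.93, -0.11 and -0.95 (limma adjusted p = 0.293).

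Purine and methionine genes were low on array 1, and purine genes also on array 3. Of 22 purine and one-carbon genes, ADE13 fell and 0 rose, with list medians of -0.96, 0.05 and -0.57. SHM2, the cytosolic serine hydroxymethyltransferase, gave -1.73, 0.08 and -1.19 (limma adjusted p = 0.207), and ADE3, a folate enzyme, gave -1.30, 0.04 and -0.45. Neither was below 0 on array 2. Of 33 genes of sulfate uptake and methionine synthesis, SEO1, a permease homolog, fell and 0 rose. That list's medians were -0.73, -0.16 and -0.05, and 12 of the 33 were below 0 on every array, beside 14.9% of all probes. MET17, which incorporates sulfide into homocysteine, gave -1.69, -0.61 and -0.72 (limma adjusted p = 0.0632). Of 13 genes of aromatic catabolism and fermentation, PDC5 and PDC1 fell, and the median was -0.53, -0.11 and -0.16.

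Ribosomal genes had list medians above 0 on array 1. Of 73 mitochondrial ribosomal protein genes RSM25 rose, 0 fell, and the median log2 ratio was 0.41, 0.00 and 0.42 on arrays 1, 2 and 3. Of them, 32 were above 0 on all 3 arrays and 0 were below 0 on all 3, beside 14.3% and 14.9% of all probes. MRPL28 gave 0.42, 0.30 and 0.50, and MRPL51 gave 0.37, 0.18 and 0.68, without passing the test (limma adjusted p = 0.216 and 0.221). Of 41 mitochondrial import and protease genes, 13 were above 0 on every array and 0 passed. TIM23, the channel of the inner membrane translocase, gave 0.86, 0.12 and 0.69 (limma adjusted p = 0.0632). Of 137 cytosolic ribosomal protein genes RPL36A rose and 0 fell. Their medians of 0.31, 0.00 and 0.05 were led by array 1, and 40 were above 0 on all arrays. The 106 ribosome biogenesis genes, with medians of 0.40, 0.03 and -0.19 and 0 calls, had medians on both sides of 0. Paralogous ribosomal probes such as RPS14A (1.41, 0.09 and 0.22) and RPS14B (1.16, 0.11 and 0.37) may read each other's RNA.

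**Figure D3:**
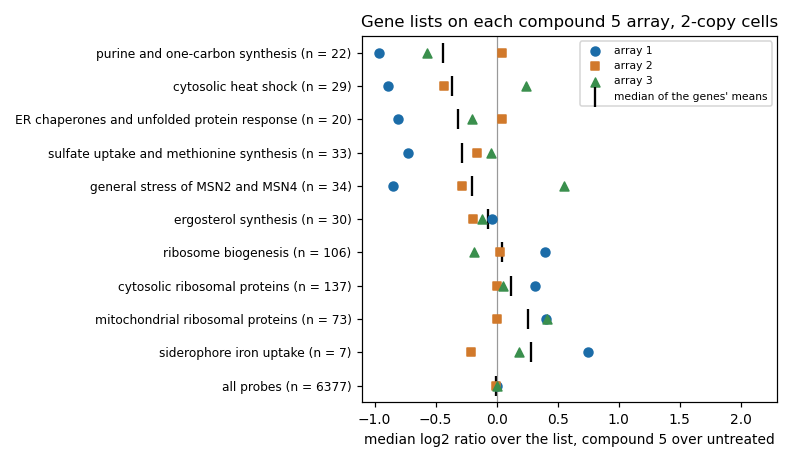
Median log2 ratio of compound 5 over no compound over the genes of 10 lists and over all probes, for each of the 3 arrays in 2-copy cells; bars give the median of the genes' means. Stress and biosynthetic lists spread from -0.96 (purine genes, array 1) to 0.56 (general stress, array 3), and mitochondrial ribosomal genes lie at 0.41, near 0 and 0.42.

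Hexose transporter and daughter cell genes had list medians above 0 on all 3 arrays. Of 15 hexose transporter and sensor genes SNF3 rose, and 7 were above 0 on every array, beside 14.3% of all probes. HXT6, a high-affinity hexose transporter, gave 0.32, 1.35 and 1.29 (limma adjusted p = 0.21), and HXT3, a low-affinity one, gave 0.44, 0.95 and 0.86. Both were higher on arrays 2 and 3 than on array 1. Of 14 genes of daughter cell separation, 8 were above 0 on every array, beside the same 14.3%, with medians of 0.12, 0.38 and 0.22 and 0 calls. SCW11, a glucanase of the septum, gave 0.74, 0.39 and 0.54 (limma adjusted p = 0.126). Of 30 ergosterol genes, 13 were below 0 on every array, beside 14.9% of all probes, and 0 passed. ERG3, the sterol desaturase, gave -0.45, -0.76 and -0.42 (limma adjusted p = 0.0994).

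Genes that report on the expression system and on drug export did not pass. GAL1 had a mean log2 ratio of 0.01 and GAL10 of -0.16 (limma adjusted p = 0.982 and 0.741), and 0 of 9 galactose genes were called. Among drug efflux pumps, PDR5 had a mean of -0.37, SNQ2 of 0.25 and YOR1 of 0.07, and 0 of 22 genes of that list passed. The strain markers URA3 and TRP1 had means of 0.00 and -0.20. Of 7 siderophore iron uptake genes 0 passed. FIT2, a mannoprotein that retains iron siderophores in the cell wall, gave 0.31, -0.21 and 0.74, and FIT3 gave 1.39, 0.19 and 0.46 (limma adjusted p = 0.897 and 0.405). A p above the threshold on 3 such uneven arrays does not show that these genes were unaffected.

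Array 1 also stood out for RNA encoded in mitochondria, a list picked after its values were seen. ATP6, a subunit of the mitochondrial ATP synthase, gave 3.88, 1.26 and 0.32, and OLI1, the ring subunit of that enzyme, gave 3.66, -0.28 and -0.43. The intron open reading frame AI5_ALPHA gave 3.78, 0.44 and 0.38. COX1 and COX2, oxidase subunits from the same genome, had -0.56 and -0.41 on array 1, so mitochondrial RNAs did not shift as 1 block. Of 28 such probes the one of Q0297 rose, and the median over the list was -0.01, 0.04 and 0.09 on arrays 1, 2 and 3. How the mitochondrial values bear on the other results was not tested.

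In vector cells, where no alpha-synuclein is made, the question is whether compound 5 does the same. There 42 probes passed (0.659%), 5 higher (0.0784%) and 37 lower (0.58%), and 0 of them were among the 63 of 2-copy cells. With only 0.988% and 0.659% of probes called, unrelated lists would also share few or none. This 0 therefore does not show that the responses differ. The vector arrays matched each other no better: array 2 correlated at -0.323 with array 3 and at -0.109 with array 1. In vector cells this array 2 correlated at 0.585 and 0.398 with array 2 of compounds 2 and 1. With arrays 1 and 3 of those compounds r ran from -0.364 to -0.259. With the arrays of compounds 3, 4 and 6 it ran from -0.0707 to 0.28. What sets this likeness was not tested. With r below -0.3 to array 3 the direction of array 2 is not settled, and with its sign turned 27 probes passed. Without array 1 the count was 19, and with a dye term it was 1. PDC5 gave -0.04, -0.52 and -0.73 in vector cells, and its 2-copy minus vector difference of -0.91 ± 0.30 (SE) did not pass (limma adjusted p = 0.271, 95% interval -1.50 to -0.31).

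The difference between the strains passed for 4 genes (0.0627%), 3 of them higher (0.047%) and 1 lower (0.0157%) in 2-copy than in vector cells. KNH1 gave -0.10, -0.29 and -0.15 in vector cells against 1.32, 0.32 and 0.55 in 2-copy cells. The arrays of the groups did not overlap, which also held for 9.19% of all probes, and the difference was 0.91 ± 0.19 (SE, limma adjusted p = 0.0201). SKI3, of the complex that feeds RNA to the exosome, gave -0.72, -0.46 and -0.19 in 2-copy cells and 0.01, 0.76 and -0.01 in vector cells, a difference of -0.71 ± 0.15 (SE, limma adjusted p = 0.0201). PRP16, a splicing helicase, differed by 1.10 and SPE4, the spermine synthase, by 1.14 (limma adjusted p = 0.00327 and 0.0201). For PRP16 and SPE4 the 2-copy values lay near 0, from -0.27 to 0.16, and the vector values set the difference: PRP16 had -1.47, -1.97 and -0.09 there, and SPE4 had -0.26, -2.31 and -0.89. The arrays of PRP16 overlapped between the strains. With vector array 2 turned, none of these 4 genes kept the call: the difference was 0.72 for KNH1 (limma adjusted p = 0.0978) and -0.20 for SKI3 (0.615), and it changed sign to -0.21 for PRP16 (0.82) and -0.40 for SPE4 (0.618). The same contrast taken from the arrays of 2-copy over vector cells, with compound 5 minus without, passed for none of them: it was 0.44 for KNH1 (limma adjusted p = 0.122), -0.23 for SKI3 (0.373), 0.10 for PRP16 (0.856) and -0.03 for SPE4 (0.967). A dye term gave 0.58, -0.39, 0.50 and 0.45, with the call lost for SPE4 (0.0772), and array weights ended the calls of SKI3 and SPE4 (0.31 and 0.575). These groups share array numbers but did not deviate together at every number. Without array 1 of both strains, KNH1 had a limma adjusted p of 0.705, PRP16 of 0.0772 and SKI3 of 0.205, and without array 2 the limma adjusted p of PRP16, SKI3 and SPE4 was 0.261, 0.316 and 0.517.

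The arrays that compared 2-copy with vector cells, both under compound 5, show the difference between the strains in the presence of the compound. Untreated 2-copy cells differed from vector cells at 3840 probes (60.2%), 2002 higher (31.4%) and 1838 lower (28.8%). With compound 5 in both strains 1921 probes passed (30.1%), 1052 higher (16.5%) and 869 lower (13.6%), with 3 arrays in place of 6. Without array 2 of the latter, 850 passed. Of the 56 genes that fell in 2-copy cells, 43 were higher in untreated 2-copy than in vector cells, and 26 were higher with compound 5. These arrays may share 2-copy RNA with the treated comparison, so the counts are given side by side only.

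**Figure D4:**
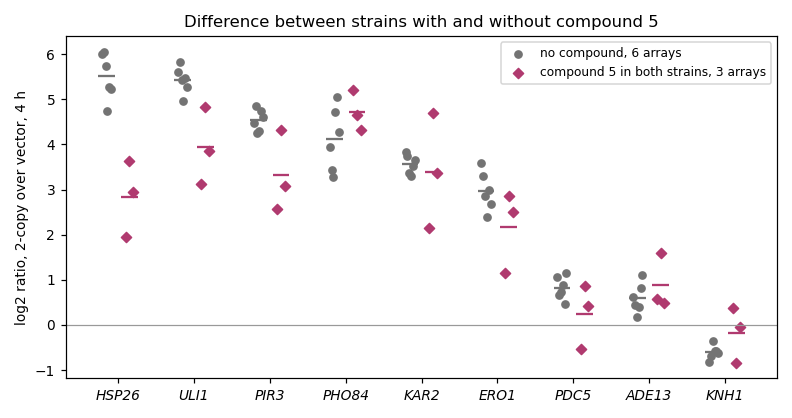
Log2 ratio of 2-copy over vector cells at 4 h without compound (grey circles, 6 arrays) and with compound 5 in both strains (diamonds, 3 arrays) for 9 genes; short lines are means. HSP26 drops from a mean of 5.51 to 2.84 with no overlap, while the arrays of KAR2 and ADE13 overlap. HSP26, ULI1, PIR3, PHO84, KAR2 and ERO1 were chosen for high untreated ratios, which in itself favours a drop.

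The strain ratio of single genes is given without and with compound 5. HSP26, ULI1, KAR2, PIR3, PHO84 and ERO1 were fixed beforehand because they were highest in untreated 2-copy over vector cells. That choice in itself favours a lower ratio on the arrays with compound 5. HSP26 ran from 4.74 to 6.06 (median 5.51) on the 6 untreated arrays and was 1.95, 3.62 and 2.95 with compound 5. The difference between these ratios was -2.67 (limma adjusted p = 0.00661), with 233 probes past that test (3.65%), 83 higher (1.3%) and 150 lower (2.35%). Such a ratio can move through the RNA of either strain, and HSP26 did not pass for compound 5 over no compound in 2-copy cells. GSH1 had a mean of 0.91 without compound and 0.38 with it, a difference of -0.52 (limma adjusted p = 0.00414). Both groups of arrays stayed above 0, so the genes were still higher in 2-copy cells. KAR2 had a mean of 3.57 without compound and 2.14, 4.69 and 3.37 with it, on both sides of the untreated mean (difference -0.17, limma adjusted p = 0.926). ULI1 had 5.43 against 3.94 and ERO1 2.97 against 2.16, with limma adjusted p-values of 0.286 and 0.414 for the differences. PIR3, a cell wall protein, had 4.54 against 3.33 (limma adjusted p = 0.058), and PHO84, the high-affinity phosphate transporter, had 4.12 against 4.73 (limma adjusted p = 0.63).

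Among the 6 compounds, all at 4 h but at doses the labels do not give, compound 5 was compared with each of the others in 2-copy cells. The 5 pairs were adjusted together over all probes. Compound 5 differed from compound 1 at 109 probes (1.71%), 68 higher (1.07%) and 41 lower (0.643%), and from compound 2 at 173 (2.71%), 117 higher (1.83%) and 56 lower (0.878%). Same-numbered arrays deviated together, and with the array number as a block 56 and 74 probes passed. Without array 1 the counts were 46 and 107, and without array 2 they were 20 and 14. For the differences from compounds 1 and 2 printed below with an SE, the limma adjusted p with this block stands beside the one without it.

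Some iron siderophore genes were lower with compound 5 than with compounds 1 and 2. FIT2 gave 4.73, 3.84 and 4.23 with compound 1 and 4.33, 4.40 and 4.37 with compound 2, against 0.31, -0.21 and 0.74 with compound 5. The difference was -3.98 ± 0.93 (SE) from compound 1 and -4.08 ± 0.93 from compound 2, with limma adjusted p-values of 0.0142 and 0.012, or 0.0159 for each with the block. FIT3 gave 3.88, 3.41 and 3.24 with compound 1, and the difference was -2.83 ± 0.52 (SE, limma adjusted p = 0.00107, 0.0159 with the block). PRM1, a membrane protein of mating cell fusion, gave 3.82, 2.56 and 2.36 with compound 1 and 0.42, -0.11 and 0.10 with compound 5, a difference of -2.77 ± 0.42 (SE, limma adjusted p = 3.48e-05, 0.0205 with the block). The arrays did not overlap between the compounds for any of these 3 genes, which held for 14.8% of all probes against compound 1 and 18.2% against compound 2. Of the 7 siderophore genes, 3 were lower with compound 5 in each comparison, beside 0.643% and 0.878% of all probes, and 0 were higher. PRM1 passed whichever array number was left out. Without array 2 the limma adjusted p was 0.16 and 0.19 for FIT2 and 0.0531 and 0.0547 for FIT3, against compounds 1 and 2. Without array 1 it was 0.104 and 0.0639 for FIT2. When all arrays were scaled to a common spread, the differences from compounds 1 and 2 were -2.50 and -2.62 for FIT2 (limma adjusted p = 0.242 and 0.21) and -1.71 and -1.74 for FIT3 (0.0922 and 0.0866), which ended these calls. PRM1 had -1.77 and -1.81 and kept them (limma adjusted p = 0.023 and 0.0192).

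Some secretory stress genes were higher with compound 5 than with compounds 1 and 2. KAR2 gave -4.53, -2.63 and -2.31 with compound 1 and -4.74, -3.44 and -3.06 with compound 2, against -1.08, 0.22 and -0.46 with compound 5. The differences were 2.72 ± 0.62 (SE, limma adjusted p = 0.012, 0.0387 with the block) and 3.30 ± 0.62 (SE, limma adjusted p = 0.00137, 0.0183 with the block). Every compound 5 array lay above every array of compounds 1 and 2. Without array 2 the limma adjusted p of KAR2 was 0.149 against compound 1 and 0.0547 against compound 2, and without array 1 it was 0.116 against compound 1. Of the 20 ER chaperone genes, 4 were higher against compound 1 and 7 against compound 2, beside 1.07% and 1.83% of all probes, and 0 were lower. Scaled to a common spread, the arrays gave only 7 and 9 calls over all probes against compounds 1 and 2. MCD4, which adds ethanolamine phosphate to GPI anchors, differed by 1.76 ± 0.45 from compound 1 (SE, limma adjusted p = 0.0288, 0.0667 with the block). HXT2, a glucose transporter, differed by 1.63 ± 0.36 from compound 1 (SE, limma adjusted p = 0.00885, 0.0567 with the block). PHO89, the sodium-phosphate cotransporter, gave 1.59, 0.88 and -1.34 with compound 5 and -1.39, -1.69 and -3.10 with compound 2 (difference 2.44 ± 0.51 SE, limma adjusted p = 0.00638, 0.0341 with the block). SHM2 differed by 2.20 ± 0.52 from compound 2 (SE, limma adjusted p = 0.0169, 0.0341 with the block). Each of these 4 genes lost a call when an array number was left out: MCD4 without any of the 3 (limma adjusted p = 0.0543 to 0.301), HXT2 without array 3 (0.105), and PHO89 and SHM2 without array 1 (0.0605 and 0.0639) or array 2 (0.0927 and 0.274). With arrays scaled to a common spread KAR2 differed by 1.63 from compound 1 (limma adjusted p = 0.0999) and by 2.12 from compound 2 (0.0215). The calls of MCD4 (0.95, limma adjusted p = 0.264), HXT2 (1.05, 0.238), PHO89 (1.56, 0.177) and SHM2 (1.20, 0.201) were lost under that scaling.

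For PDC5 and KNH1 the differences from compounds 1 and 2 did not pass the test. PDC5 gave -2.12, -1.32 and -1.25 with compound 1 and -1.96, -1.92 and -1.71 with compound 2. Its difference from compound 5 was 0.23 (95% interval -0.36 to 0.82) and 0.53 (95% interval -0.07 to 1.12). KNH1 gave 1.28, 0.43 and 0.33 with compound 1, and its difference of 0.05 had a 95% interval of -0.33 to 0.43, while that from compound 2 was 0.23 (95% interval -0.15 to 0.62). These intervals still include sizeable differences in either direction for PDC5 against compound 1.

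**Figure D5:**
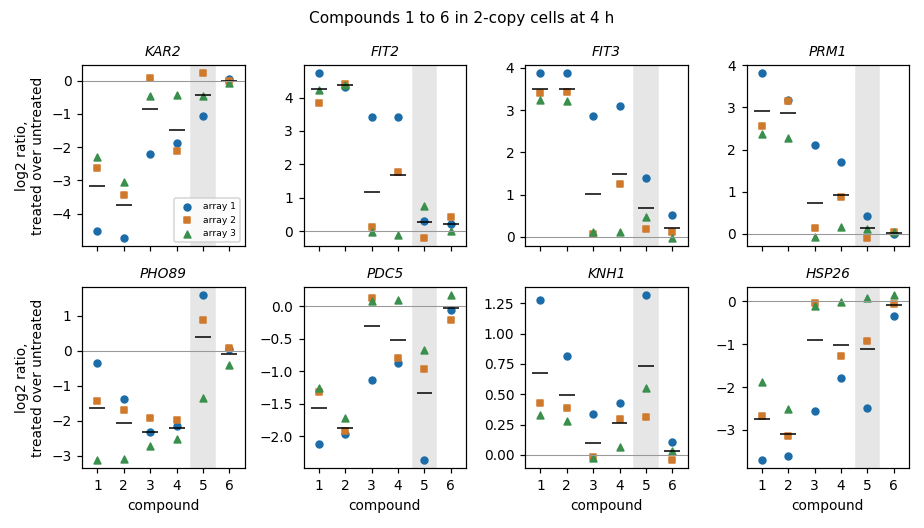
Log2 ratio of treated over untreated 2-copy cells at 4 h for 8 genes (panels), by compound 1 to 6; symbols are arrays, lines are means, and the grey band marks compound 5. FIT2 reaches 3.84 or more with compounds 1 and 2 and stays below 0.75 with compound 5, and PDC5 is lower with compounds 1, 2 and 5 than near 0 with compound 6.

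Compounds 3 and 4 share the dimethyl quinolinone of compound 5. Compound 5 differed from compound 3 at 58 probes (0.91%), 36 higher (0.565%) and 22 lower (0.345%), and from compound 4 at 22 (0.345%), 8 higher (0.125%) and 14 lower (0.22%). Arrays 2 and 3 of compound 3 and array 3 of compound 4 stand apart from the rest of the series. Without the 10 such arrays of the series the counts were 55 and 82. Without array 2 of both compounds of a pair 5 probes passed against each of compounds 3 and 4. Deviations correlated above 0.1 at every number between compounds 5 and 3, though array 3 of compound 5 matched another number better. With the block 1 probe passed against each of compounds 3 and 4, that of HXT2. HXT2 gave -1.41, -1.87 and -2.19 with compound 3 and -1.43, -2.37 and -1.99 with compound 4, against 0.98, -0.36 and -0.26 with compound 5. The differences were 1.94 and 2.05, both ± 0.36 (SE, limma adjusted p = 0.00107 and 0.000519), with 0.0387 and 0.0361 under the block. Without the arrays that stand apart the limma adjusted p was 0.126 for compound 3. PDC5 did not pass against either compound, with differences of -1.03 (95% interval -1.62 to -0.43, limma adjusted p = 0.0678) and -0.81 (95% interval -1.41 to -0.22, limma adjusted p = 0.198).

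Of 20 phosphate starvation genes, 4 were higher with compound 5 than with compound 3 and 3 were higher than with compound 4, beside 0.565% and 0.125% of all probes. PHO89 gave -2.32, -1.93 and -2.73 with compound 3 and -2.16, -1.98 and -2.53 with compound 4, all below the compound 5 arrays. Such separation held for 9.53% of all probes against compound 3 and 7.86% against compound 4. The differences were 2.70 ± 0.51 and 2.60 ± 0.51 (SE, limma adjusted p = 0.0016 and 0.0027), and the block gave 0.0866 and 0.13. SPL2, which lowers phosphate uptake by the low-affinity carrier, differed by 2.39 and 2.41 (limma adjusted p = 0.0109 and 0.0099), with 0.105 and 0.14 under the block. FAA1, a long-chain acyl-CoA synthetase, gave 1.42, 1.01 and 0.72 with compound 3 and 0.34, -0.41 and 0.62 with compound 5, a difference of -0.87 ± 0.20 (SE, limma adjusted p = 0.0124, 0.301 with the block). ISU2, an iron-sulfur cluster scaffold, and EFM6, a methyltransferase of elongation factor 1A, were also lower than with compound 3, by -0.83 and -0.79 (limma adjusted p = 0.00674 and 0.0197, 0.256 and 0.122 with the block). Against compound 4, BAT1, the mitochondrial branched-chain aminotransferase, differed by -0.73 and SAM3, the S-adenosylmethionine permease, by -0.93 (limma adjusted p = 0.00385 and 0.0198, 0.175 and 0.27 with the block). Array by array, SAM3 was -0.51, -0.70 and 0.00 with compound 5 and 0.53, 0.80 and 0.26 with compound 4. When single array numbers were left out, PHO89, SPL2, FAA1 and SAM3 lost their calls without array 1 or without array 2, with limma adjusted p-values from 0.0512 (PHO89, compound 3, without array 2) to 0.597 (FAA1, compound 4, without array 2). BAT1 lost it without array 2 (0.0999), ISU2 without array 1 (0.269), and EFM6 without any of the 3 (0.0574 to 0.23), while HXT2 kept it. Scaling to a common spread ended the calls of FAA1 (limma adjusted p = 0.0783 and 0.0589 against compounds 3 and 4). Array weights ended those of SPL2 (0.0654 and 0.054) and that of FAA1 against compound 3 (0.161). Without the arrays that stand apart EFM6 and SPL2 missed the threshold against compound 3 (0.194 and 0.08).

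Compound 5 differed from compound 6 at 7 probes (0.11%), 3 higher (0.047%) and 4 lower (0.0627%). PDC5 gave -0.06, -0.21 and 0.17 with compound 6, so the difference was -1.30 ± 0.30 (SE, limma adjusted p = 0.0124). BDF2 gave 0.37, -0.20 and 0.06 with compound 6 (difference -0.87 ± 0.22 SE, limma adjusted p = 0.022), and SEO1 gave 0.05, 0.13 and 0.12 (difference -0.59 ± 0.16 SE, limma adjusted p = 0.0408). KNH1 and NFI1, a SUMO ligase, were higher, by 0.70 and 0.56 (limma adjusted p = 0.0465 and 0.0494). The arrays did not overlap for any of these 5 genes, as for 8.01% of all probes. With the array number as a block 0 probes passed in limma (249 at an unadjusted p under 0.05), and the adjusted p of PDC5 was 0.203. Without array 1, all 5 genes missed the threshold, with a limma adjusted p of 0.366 for PDC5 and from 0.341 for SEO1 to 0.799 for NFI1 among the others. Without array 2 the limma adjusted p was 0.0865 for KNH1, 0.245 for NFI1 and 0.212 for SEO1, and without array 3 it was 0.0924 for KNH1 and 0.0866 for SEO1. A dye term gave 0.40 for KNH1 and 0.32 for NFI1 (limma adjusted p = 0.178 and 0.184), and array weights gave 0.22 for NFI1 (0.546). Without the arrays that stand apart KNH1 and SEO1 missed the threshold (limma adjusted p = 0.0875 and 0.0855), as did KNH1 and NFI1 after arm centring (0.0533 and 0.0605). Of the genes named in these comparisons of compounds, only FIT2 passed in the fit to the groups' own arrays alone.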

How the data were processed

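The deposited values were log2 ratios, 1 per probe and array, made by the authors with limma per the submitters' processing notes; no version or setting is given there. No label states the direction of a ratio: it was taken as Cy5 over Cy3, after limma's usage and the order in which the titles name the samples. RNA was extracted with hot phenol and each comparison used 3 pairs of biological replicates, per the labels' protocols. The labels give neither doses nor whether comparisons share cultures.

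Of 6377 probes, 5644 were named by locus tag, 196 more after a hyphen was added, and 537 matched no gene. No reading was missing. limma 3.58.1 in R 4.3.3 fitted 1 mean per group over all 93 arrays (67.6 degrees of freedom), with Benjamini-Hochberg adjustment over all probes, two-sided, at 0.05, and over the 5 pairs of compounds together. The fit was run on simulated data with independent errors and, for each probe, the same spread on all arrays. That simulation does not cover the uneven spreads and shared deviations of the real arrays. Chromosome arms were read from locus tags. Signal over background is unknown, and the number of arrays limits the precision.

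Genes named first had a symbol, 1 sign on all 3 arrays and passed with and without a dye term; of each list up to 6 members, and of each pair up to 3 differences each way, were taken by rule, and other names were chosen after their values were seen. The members and the 45 gene lists were chosen with earlier results of these data known, and lists get no test. Same-numbered arrays were checked for pairing by the correlation of their deviations from the group means. It exceeded 0.1 at every number for compound 5 with compounds 1, 2, 3 and 6 (0.122 to 0.659), not with compound 4 (-0.13 to 0.383) or with vector cells (0.022 to 0.416), where it was low at 1 or more numbers. Still, array 3 of compound 5 matched another number of compound 3 better, and array 2 another number of compound 6. Probe sequences were not used here, so paralogs such as PDC1 and PDC5, RPL36A and RPL36B, and RPS14A and RPS14B cannot be told apart by cross-hybridisation. Alternatives were a dye term, array scaling, array weights, the groups' own arrays alone, leaving out 10 arrays that stand apart, leaving out each replicate, the replicate block, and 2 settings chosen after seeing the data: chromosome arm centring and vector array 2 with its sign turned. The dye term was fitted together with a level for each RNA over all arrays, in place of a mean for each group.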

Additional observations from a re-analysis of the deposited data

Results flagged for a closer look

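By limma's test, the response to compound 5 differed between 2-copy and vector cells for KNH1 (0.91), PRP16 (1.10), SPE4 (1.14) and SKI3 (-0.71). None kept the call with vector array 2 turned (limma adjusted p = 0.0978, 0.82, 0.618 and 0.615, in that order). The same held for 2-copy over vector cells, with compound 5 minus without (0.122, 0.856, 0.967 and 0.373). In the fit to own arrays alone the limma adjusted p was 0.951 for each. With vector array 2 turned the sign changed for PRP16 (-0.21) and SPE4 (-0.40). KNH1 was above 0 on the 3 arrays in 2-copy cells and below 0 on the 3 arrays in vector cells.

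In untreated 2-copy over vector cells at 4 h, 1 of 6 arrays lay far from the others for FIT3, at a log2 ratio of 1.04, and for TRP1, at 0.55. The rule behind these values picks about 1 in 20 groups by chance. It was applied to the 15 genes named first and to 16 other genes fixed beforehand, so FIT3 and TRP1 may be such picks.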

How the results depend on the processing

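Counts of probes past the limma threshold moved most with the choice of fit. For compound 5 in 2-copy cells (63 probes) they were 128 with array scaling, 20 with array weights, 135 without the arrays that stand apart, 1 with a mean of at least 1 in size, and 13 to 180 when a replicate was left out; the 3 arrays alone gave 0 (316 at an unadjusted p under 0.05). The dye term gave 66, of which 17 were among the 63, with 17 higher and 49 lower. In vector cells (42) they were 1 with the dye term, 186 with scaling, 147 with weights, 0 alone (171 unadjusted), 24 after arm centring, 27 with array 2 turned and 19 to 56 without a replicate. For the strain difference (4) they were 252, 33, 65 and 0 (186 unadjusted) in the first 4 of these settings, 233 from the other sides of the loop and 2 to 36 without a replicate; the replicate block gave 0 (325 unadjusted). For 2-copy over vector with compound 5 (1921) they were 959 with scaling, 573 alone and 850 to 1874 without a replicate. Against compounds 1, 2, 3, 4 and 6 the dye term gave 298, 391, 103, 118 and 31. The replicate block gave 56, 74, 1, 1 and 0 (249 unadjusted). Same-numbered deviations correlated above 0.1 at every number for all of these compounds but compound 4. Scaling gave 7, 9 and 17 for compounds 1, 2 and 6, and weights 189, 45 and 61 for compounds 3, 4 and 6. Own arrays alone gave 1, 1, 0, 0 and 0 (277, 171 and 162 unadjusted for the last 3). Without the arrays that stand apart compounds 1, 2 and 4 gave 223, 297 and 82. Leaving out a replicate gave 20 to 102, 14 to 107, 5 to 110, 5 to 63 and 4 to 8. The causes were not tested. Among the genes named for 2-copy cells none past the threshold changed sign, but means that did not pass crossed 0. Leaving out a replicate gave -0.876 to 0.0054 for PHO84, -0.0351 to 0.0541 for GAL1, -0.364 to 0.0812 for GAL10, -0.0097 to 0.134 for YOR1 and -0.0864 to 0.0837 for URA3, and the dye term gave -0.0198 for YOR1 and 0.0119 for TRP1. The strain difference changed sign for SPE4 (-0.402) and PRP16 (-0.214) with vector array 2 turned, and for SPE4 (-0.0298) from the other sides of the loop. Of the 15 genes named first, 10 lost the call with array weights, 15 with own arrays alone and 4 after arm centring, and ULI1 passed without the arrays that stand apart (limma adjusted p = 0.0264). The promoter motif counts planned were not run. The calls rest on 3 arrays of 1 dye orientation, so a gene's dye bias and the compound's effect cannot be told apart on them. The dye term separates them only with the help of other comparisons.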
